A study of Mus musculus with 12 samples.

Results

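cJun was mapped by CUT&RUN, which releases and sequences the DNA around an antibody-bound protein, in Min6, a β cell line derived from a mouse insulinoma. Cells received DMSO (the control) or 20 µM of the JNK inhibitor SP600125 (JNKi) for 48 h, and cJun, the histone mark H3K4me3 and an IgG control were each profiled in 2 biological replicates per treatment (12 samples in 6 groups). The regions described here are the cJun peaks at H3K4me3-marked promoters of DMSO-treated cells. A member is a peak of the DMSO cJun list that overlapped a DMSO H3K4me3 peak by at least 1 bp and whose midpoint lay within 3 kb of an annotated transcription start site (TSS), on GRCm38. Members were therefore selected on measured cJun and H3K4me3 peaks, and those properties are description only. The rule gave 1810 of 4960 DMSO cJun peaks. For comparison, 839 cJun peaks overlapped H3K4me3 far from any promoter and 2311 lay outside H3K4me3.

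cJun is the JUN subunit of AP-1, a family of dimeric transcription factors. JUN-FOS dimers prefer the AP-1 site, and dimers of JUN with ATF proteins prefer the cAMP response element (CRE). JNK phosphorylates the transactivation domain of cJun. H3K4me3 marks the nucleosomes around active start sites, most of which in mammals lie in CpG islands, stretches of GC-rich DNA that have kept their CpG dinucleotides.

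Each list merges the peaks of both replicates of a treatment and carries, per replicate, the −log10 p of the peak call, and an irreproducible discovery rate (IDR), low where a peak ranks high in both replicates alike. The lists were not limited by IDR, and 176 members (9.72%) had an IDR of at most 0.05. Over members, the −log10 p ran from 3.04 to 86.8 in the first replicate (median 8.07) and from 3.02 to 62.9 in the second (median 7.18), with a Spearman correlation of 0.381 across peaks that share both libraries. Read depth per library is unknown from the lists, and −log10 p values can be compared only within a list. As each treatment gave 1 list, no share below has a replicate spread. The 95% intervals (Wilson for a share, Newcombe for a difference between shares) cover counting error over peaks only, and peaks are not replicates. Of the markers of cell types, 9 of 10 for β cells had H3K4me3 over a TSS (Ins1 did not), against 0 of 5 for acinar cells, 2 of 4 for duct (Krt7 and Spp1), 1 of 3 for hepatocytes (Ttr), 0 of 3 for muscle and 0 of 3 for T cells.

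Promoter sequences of 3 kinds are shown, from the RefSeq copy of GRCm38, each 5′ to 3′ on the strand of the nearest annotated gene. The first are the 5 highest-ranked members with an AP-1 site (TGACTCA, or TGAGTCA on the other strand) within 100 bp of the summit, the position of the highest signal, with the site in capitals. They show the motif the factor is known for in its place in a promoter peak. At Nt5dc3, Bcar1, Gm30239 and Cirbp the windows lay in introns of the annotation, and the window on chromosome 19 lay between genes.

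Nt5dc3, chr10:86778640-86778720 (+): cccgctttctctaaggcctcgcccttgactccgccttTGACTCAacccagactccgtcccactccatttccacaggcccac
Bcar1, chr8:111742759-111742839 (-): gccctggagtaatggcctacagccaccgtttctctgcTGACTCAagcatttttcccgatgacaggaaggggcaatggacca
Transcript of unclassified type, chr19:4993129-4993158 (-): gccaggccaggaTGACTCAcactgacagta
Gm30239, chr13:12542325-12542405 (+): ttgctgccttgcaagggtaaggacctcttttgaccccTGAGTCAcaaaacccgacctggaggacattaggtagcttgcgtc
Cirbp, chr10:80165933-80166013 (+): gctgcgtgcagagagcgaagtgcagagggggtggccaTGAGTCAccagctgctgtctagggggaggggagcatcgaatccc

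The second are the 5 highest-ranked members with a CRE (TGACGTCA, the same on both strands) within 100 bp of the summit. The Ppp2r3d window lay in an intron, that of Ppfia1 between genes, those of Crlf2 and Gucy2c in coding exons and that of Epb41 in the non-coding part of an exon.

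Ppp2r3d, chr9:124424924-124425004 (-): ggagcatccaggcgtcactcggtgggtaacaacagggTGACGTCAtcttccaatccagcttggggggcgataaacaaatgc
Crlf2, chr5:109558798-109558827 (-): ggcggcggcggTGACGTCAcggggtgagga
Epb41, chr4:132075545-132075574 (-): cttttgcaacaTGACGTCAgcgaccatacc
Gucy2c, chr6:136781587-136781616 (-): gagccaggtcaTGACGTCActgctgggctt
Ppfia1, chr7:144553950-144554030 (-): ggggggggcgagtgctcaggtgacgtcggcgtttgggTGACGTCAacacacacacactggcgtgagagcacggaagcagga

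The third are the 3 highest-ranked members whose whole peak held neither site, whose summit window was CpG-island-like and overlapped no exon. Here the capitals mark CpG dinucleotides, of which the 81 bases centred on the summit held 6 at Srebf1, 5 at Zbtb44 and 6 at Kctd21. The Srebf1 window lay between genes, and the Zbtb44 and Kctd21 windows lay in introns.

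Srebf1, chr11:60222725-60222805 (-): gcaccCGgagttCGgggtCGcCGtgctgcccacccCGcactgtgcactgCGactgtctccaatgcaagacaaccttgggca
Zbtb44, chr9:31030107-31030187 (+): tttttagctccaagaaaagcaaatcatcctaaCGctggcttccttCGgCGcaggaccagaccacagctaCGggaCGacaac
Kctd21, chr7:97332399-97332479 (+): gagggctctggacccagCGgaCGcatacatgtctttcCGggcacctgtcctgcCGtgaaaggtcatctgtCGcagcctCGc

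Promoter members clustered tightly around start sites, on both sides. The summit lay within 500 bp of the nearest TSS in 1281 members (70.8%) and within 100 bp in 366 (20.2%), at a median distance of 250.5 bp. The rule limited midpoints to 3 kb and required H3K4me3, which itself lies around start sites, so these positions are a description of what was selected. Summits lay downstream of the TSS in 989 members, upstream in 820 and on it in 1. Their distribution had 2 high points, with 270 summits in the bin from 100 to 200 bp downstream, 159 in the bin from 300 to 200 bp upstream and 132 in the bin just upstream of the TSS. By annotation, 738 summits (40.8%) were in introns, 440 (24.3%) in non-coding parts of exons, 145 (8.01%) in coding exons and 487 (26.9%) between genes.

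**Figure D1:**
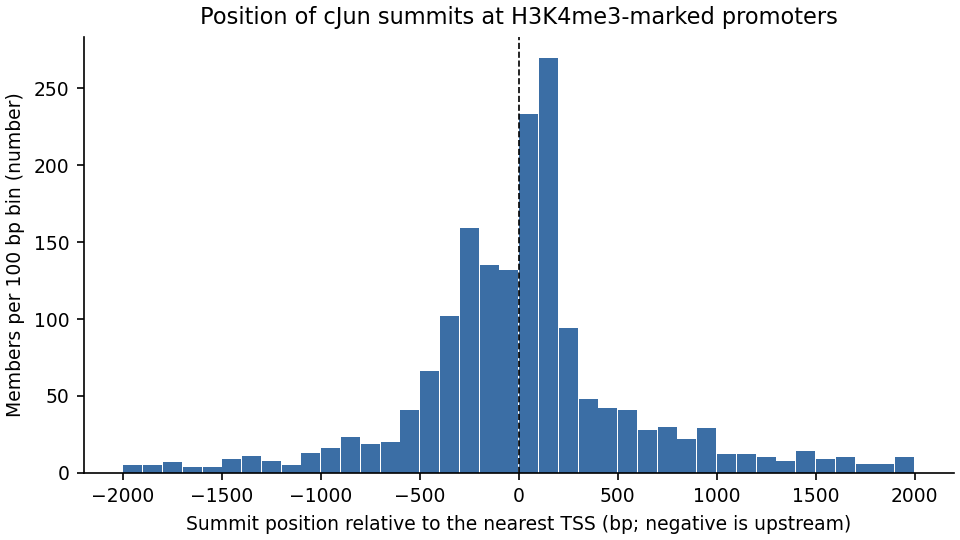
Number of members (y axis) by the position of the cJun summit relative to the nearest TSS in the direction of transcription (x axis, bp, 100 bp bins; 92 members beyond the plotted 2000 bp are left out). The bars have a high point of 270 members just downstream of the TSS, from 100 to 200 bp, and a lower one of 159 members upstream, from 300 to 200 bp.

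The members sat well inside their H3K4me3 peaks. Of all members, 1641 lay wholly inside an H3K4me3 peak, and the cJun and H3K4me3 summits were a median of 417.5 bp apart. The members fell on 1648 H3K4me3 peaks, 148 of which carried more than 1 member. The smallest overlap with H3K4me3 was 47 bp, at Tenm4, a neuronal cell-surface protein. The 3 members just inside the distance limit were near Notch1, the pseudogene Gm8504 and the antisense transcript Gm16116, with midpoints at 2989, -2986 and 2982 bp relative to the TSS (negative is upstream) and −log10 p of 8.40 and 9.99, 7.83 and 6.61, and 16.2 and 4.64 in the first and second replicate. The 3 cJun peaks at H3K4me3 just outside it were near Ghr, Mbnl2 and Gm3513, at 3050, -3061 and -3063 bp, with −log10 p of 3.16 and 10.6, 6.31 and 8.04, and 5.64 and 5.59. The values on either side of the limit overlapped.

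Member summits were GC-rich and kept CpGs. In the window from 100 bp before to 100 bp after the summit, the median GC content was 58.7% (quartiles 52.2% and 66.2%) and the median ratio of observed to expected CpG was 0.629. At H3K4me3 far from promoters the medians were 50.2% and 0.350, outside H3K4me3 they were 46.8% and 0.207, and over all 77161 annotated start positions they were 51.7% and 0.362. A window was called CpG-island-like at a GC content of at least 0.5 and a ratio of at least 0.6. This held for 890 members (49.2%, 95% interval 46.9 to 51.5), against 19.9% of all DMSO cJun summits and 31.4% of all annotated starts. The difference was 39.2 percentage points (36.0 to 42.1) from cJun peaks at H3K4me3 far from promoters, where 84 of 839 windows were CpG-island-like, and 48.6 points (46.3 to 50.9) from cJun peaks outside H3K4me3, where 13 of 2311 were. Members were chosen at promoters, where CpG islands are known to lie, and the classes compared were not.

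H3K4me3 promoters with and without cJun were compared at their start sites. Of 12368 DMSO H3K4me3 peaks with an annotated TSS, 1506 carried a member and 10851 had no cJun peak of any kind. The same window around the TSS nearest the H3K4me3 summit was CpG-island-like in 74.8% of those with a member and in 79.7% of those without, a difference of -4.93 points (-7.31 to -2.67). With protein-coding starts alone it was -2.37 points (-4.75 to -0.123). Among members of IDR at most 0.05 it was -4.07 points with an interval that held 0 (-11.3 to 1.98). Median GC content was 66.2% with a member and 66.7% without. A start of another gene running the opposite way within 1 kb was present at 13.0% and 14.0%, a difference of -0.975 points (-2.71 to 0.930).

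AP-1 sites were uncommon at member summits. Within 100 bp of the summit, 78 of 1810 members (4.31%, 3.47 to 5.35) had an AP-1 site, against 10% of all DMSO cJun summits and 2.85% of all annotated starts. The share was 7.99% at H3K4me3 far from promoters and 15.2% outside H3K4me3. Members were lower by a difference of -3.68 points (-5.88 to -1.73) from the former and -10.9 points (-12.6 to -9.13) from the latter. The first of these differences was no longer apart from 0 among peaks with an IDR of at most 0.05 (-2.20 points, -10.3 to 3.63), among those with an IDR of at most 0.01 or with H3K4me3 peaks limited to an IDR of at most 0.05 (-0.971 points, -3.70 to 1.06). Against H3K4me3 promoters without cJun the order was the other way. At the TSS, 3.65% of H3K4me3 peaks with a member had an AP-1 site and 1.45% of those without a cJun peak did, a difference of 2.21 points (1.34 to 3.30). H3K4me3 peaks with a member were also wider (median 3067 bp against 2406 bp), and the part of that in this difference was not tested.

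The CRE was found at few member summits and at more of the start sites beside them. Within 100 bp of the summit, 21 members (1.16%, 0.760 to 1.77) had a CRE, against 0.806% of all DMSO cJun summits and 1.17% of all annotated starts. The difference was 0.598 points (0.0336 to 1.25) from cJun peaks outside H3K4me3 and 0.445 points (-0.482 to 1.16) from those at H3K4me3 far from promoters. The first did not hold within 50 bp of the summit (0.403 points, -0.0134 to 0.915) or at an IDR of at most 0.05 (0.0668 points, -2.80 to 3.08). At the TSS, a CRE was found at 3.85% of H3K4me3 peaks with a member and at 2.21% of those without a cJun peak, a difference of 1.64 points (0.730 to 2.77). With members of IDR at most 0.05 alone, that difference was 2.16 points with an interval that reached 0 (-0.0958 to 6.55). Neither site lay within 100 bp of the summit in 1711 members, and no member had both.

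**Figure D2:**
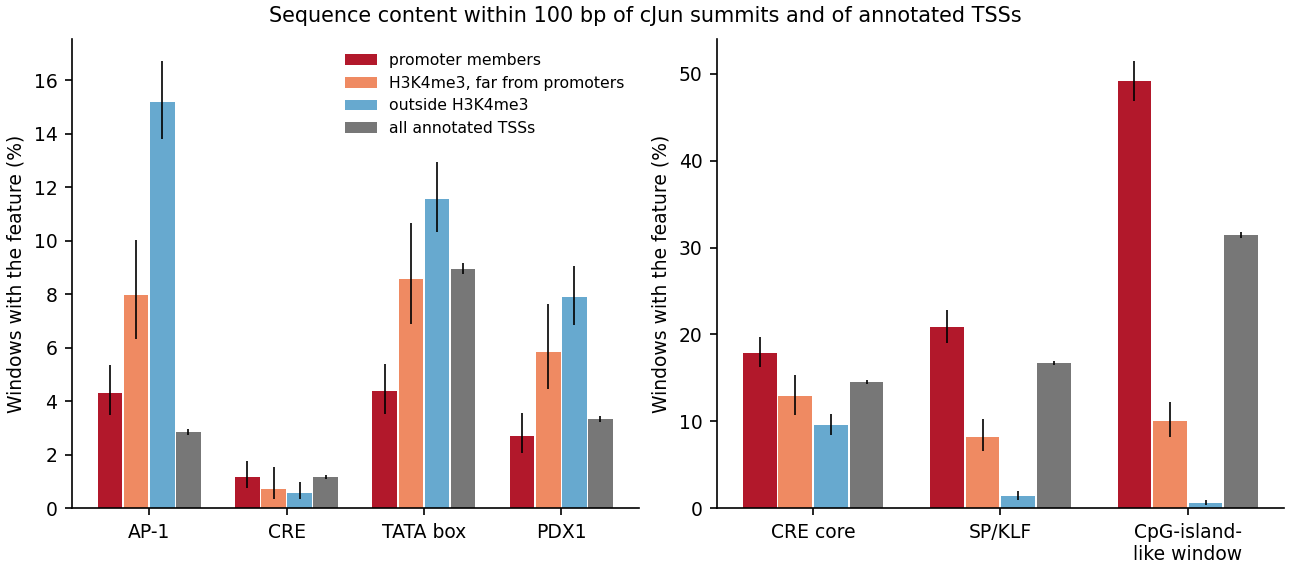
Share of windows of 100 bp to either side with each feature (y axis, %; bars start at 0, error bars are 95% Wilson intervals) for cJun summits of the promoter members, at H3K4me3 far from promoters and outside H3K4me3, and for all annotated TSSs. AP-1, TATA box and PDX1 motifs rise from the promoter members (4.31% for AP-1) to peaks outside H3K4me3 (15.2%), and SP/KLF motifs and CpG-island-like windows fall.

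The sites were densest to either side of the summit, not at it. Around member summits, AP-1 sites numbered 41.4 per 100 peaks per kb at 100 to 200 bp from the summit, against 23.2 within 100 bp and 18.1 at 300 to 500 bp. CREs numbered 18 per 100 peaks per kb at 100 to 200 bp, 6.08 within 100 bp and 3.04 at 300 to 500 bp. Peaks outside H3K4me3 had the same layout for AP-1, with 166.6 sites per 100 peaks per kb at 100 to 200 bp and 90.9 within 100 bp. Around peak midpoints the densities in members were highest within 100 bp, at 34.8 for AP-1 and 13.5 for the CRE. These distance bands were chosen after the distribution was seen, and no test was made of them. A window of 250 bp to either side took in the flanking sites. With it 256 members (14.1%, 12.6 to 15.8) had an AP-1 site, against 30.6% of all DMSO cJun summits, 27.9% at H3K4me3 far from promoters and 44.4% outside H3K4me3. A CRE lay in 105 members (5.80%, 4.81 to 6.97), against 3.35% of all DMSO cJun summits, 2.62% at H3K4me3 far from promoters and 1.69% outside H3K4me3. The CRE was then more frequent in members than at H3K4me3 far from promoters, by 3.18 points (1.53 to 4.65), while over whole peaks that difference was 1.30 points with an interval that held 0 (-0.386 to 2.78).

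The CREs were tied to the start site and the AP-1 sites were spread more widely. Of 111 CREs within 250 bp of a member summit, 75 (67.6%) lay within 200 bp of the TSS, at a median position of -41.0 bp (quartiles -114.5 and 16.5 bp). Of 284 AP-1 sites, 73 (25.7%) lay within 200 bp of the TSS, with quartiles at -501.75 and 396.75 bp. Summits and CREs each had preferred positions relative to the TSS, and their part in the flanking layout was not tested. Within the members, an AP-1 site within 100 bp was found in 3.15% of CpG-island-like windows and 5.43% of the others (difference -2.29 points, -4.21 to -0.413). It was found in 3.43% of members with the summit within 500 bp of a TSS and 6.43% of those further away (difference -2.99 points, -5.56 to -0.866).

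**Figure D3:**
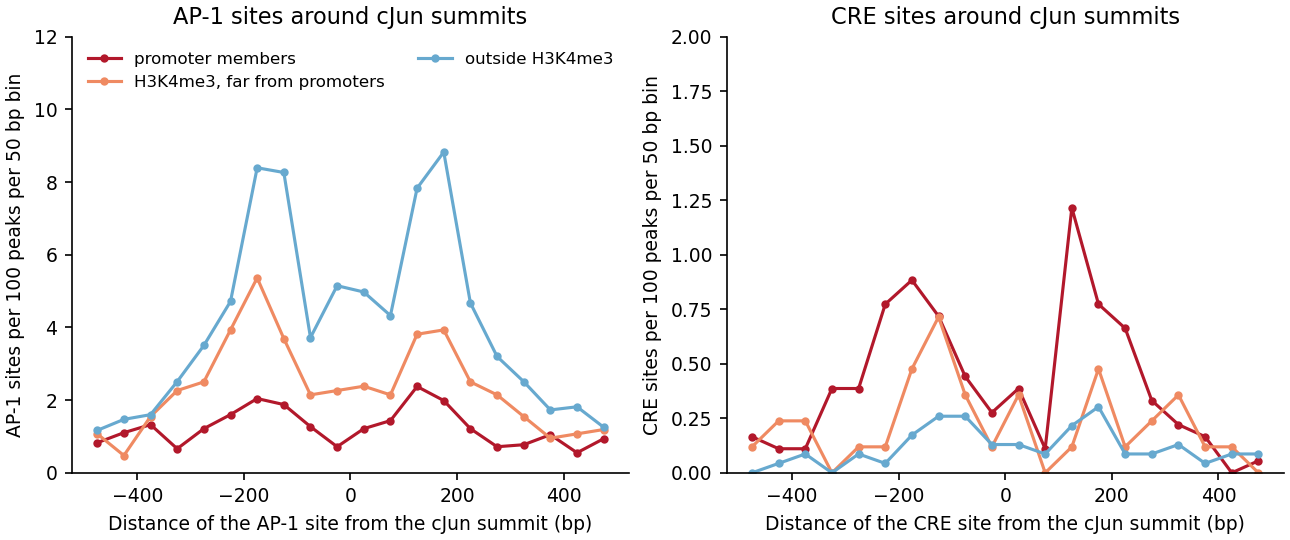
AP-1 sites (left) and CREs (right) per 100 peaks in 50 bp bins (y axes from 0, on different scales) by distance from the cJun summit (x axes, bp), for the promoter members and the other classes of cJun peak. Both sites have high points between 100 and 200 bp to either side of the summit, and among the classes the members have the lowest AP-1 curve near the summit and the highest CRE curve between 100 and 250 bp.

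Some other promoter motifs were more frequent in members than outside H3K4me3. All motifs were searched on both strands within 100 bp. The SP/KLF motif (GGGCGGG, the GC box bound by SP1) was in 377 members (20.8%), and in 16.7% of all starts, 8.22% of peaks at H3K4me3 far from promoters and 1.38% of peaks outside H3K4me3. The ETS motif (CCGGAAGT) was in 1.88% of members, 2.54% of starts and 0.130% of peaks outside H3K4me3. The CRE core TGACG, which every CRE also holds, was in 17.9% of members, 14.5% of starts and 9.61% of peaks outside H3K4me3. The E-box CACGTG was in 4.36% of members, 4% of starts and 2.86% of peaks outside H3K4me3. The differences from peaks outside H3K4me3 were, in this order, 19.4 points (17.6 to 21.4), 1.75 points (1.16 to 2.49), 8.29 points (6.17 to 10.5) and 1.51 points (0.369 to 2.71).

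Motifs of AT-rich DNA and of islet transcription factors were lower in members than in other cJun peaks, though not all were lower than at annotated starts. The TATA box (TATAAA) was in 4.36% of members, 8.94% of starts and 11.6% of peaks outside H3K4me3. The homeodomain core TAATTA, bound by PDX1 among others, was in 2.71% of members, 3.33% of starts and 7.88% outside H3K4me3. The NEUROD E-box CAGATGG was in 3.37%, 3.31% and 7.53%, and the forkhead motif TGTTTAC in 2.43%, 1.93% and 5.28%. The differences from peaks outside H3K4me3 ran from -7.19 points for the TATA box to -2.85 points for the forkhead motif, and all of these intervals excluded 0. The CCAAT box bound by NFY (CCAAT and then CA, CG, GA or GG) did not separate the classes, with 7.07% of members, 10.5% of starts and a difference of 0.451 points (-1.09 to 2.04). The remaining 5 motifs were each in at most 1.05% of members: YY1 (AAGATGGC, 2.70% of starts), NRF1 (GCGCATGCG, 0.976%), CARE (TGATGCAA, 0.708%), ZBTB33 (TCTCGCGAG, 0.389%) and ZNF143 (ACTACAATT, 0.197%). Of these, NRF1 was higher in members than outside H3K4me3 (0.552% against 0.0433%, difference 0.509 points, 0.187 to 0.972). The intervals of the others held 0.

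At the start sites of H3K4me3 peaks, 5 of the 16 motifs separated peaks with a member from peaks without cJun. Besides AP-1 and the CRE, the TATA box was higher with a member (4.32% against 2.55%, difference 1.76 points, 0.796 to 2.94). The ETS motif was lower (4.45% against 6.43%, difference -1.98 points, -3.03 to -0.739), as was YY1 (2.46% against 4.40%, difference -1.94 points, -2.72 to -0.956). ETS and YY1 motifs are typical of housekeeping promoters, and the TATA box of regulated ones. The GC box was at 41.6% and 40.2%, a difference of 1.41 points (-1.23 to 4.08). In all, 93 differences between shares were computed and the intervals of 54 excluded 0. The intervals were not adjusted for that number.

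The members touched 2165 genes of any type, by a TSS within 3 kb of the peak midpoint, of which 1613 were protein-coding. Among protein-coding genes with H3K4me3 over a TSS, 1574 of 12475 had a member, a background of 12.6%. Of the protein-coding genes with a member, 1442 had 1, 148 had 2 and 23 had 3 or more. Schip1, a cytoskeletal adaptor gene, had 6 and Pax6, an islet transcription factor, had 5. The 5 Pax6 members lay in an H3K4me3 peak 23064 bp wide, and the H3K4me3 peak over Cdkn1b, which encodes the cell cycle inhibitor p27, was 14642 bp wide with 4 members. Wider H3K4me3 peaks carried a member more often, from 4.28% in the narrowest decile to 26.4% in the widest, and a wider peak has more room to overlap. Each gene list below is therefore set beside the share of genes with a member in the same deciles of H3K4me3 width. The widest decile of genes, with a median of 5073 bp, has no upper limit. Genes with much wider H3K4me3, such as Pax6, were set beside that decile as a whole. For lists with broad H3K4me3 the share for the same widths may therefore be too low. The lists have few genes, and no test was made of them.

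**Figure D4:**
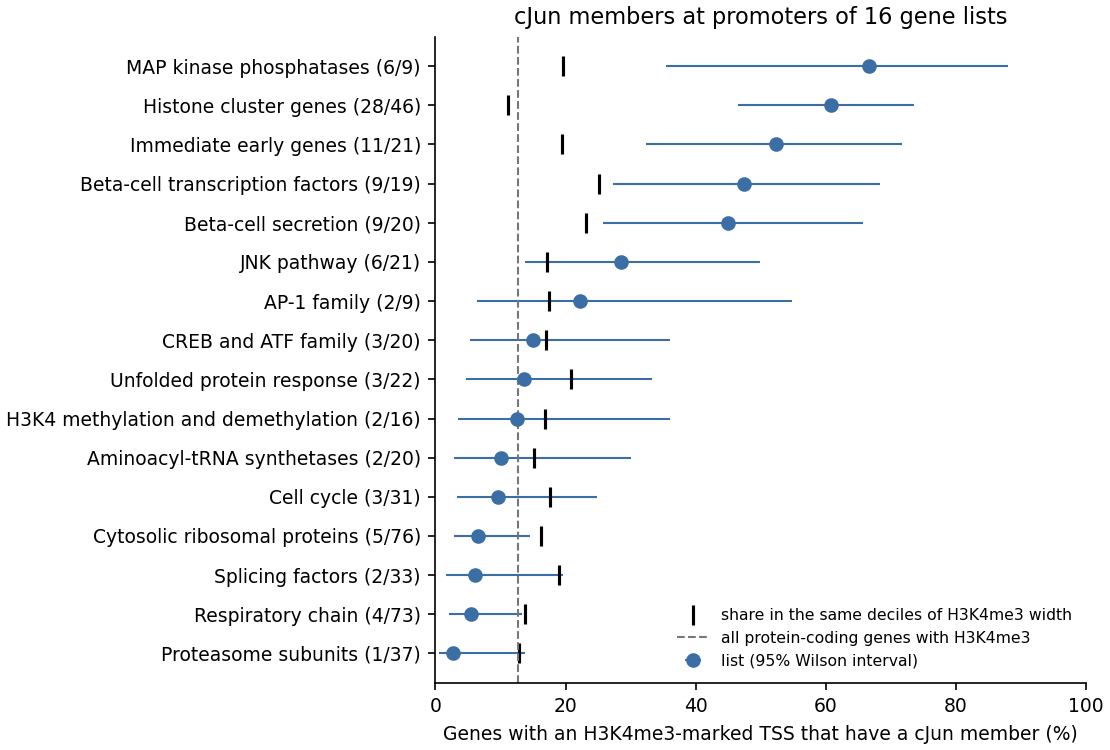
Share of the genes of each list with H3K4me3 over a TSS that had a cJun member (x axis, %; points with 95% Wilson intervals, counts beside the names), with the background of 12.6% (dashed line) and the share of all genes in the same deciles of H3K4me3 width (black ticks). MAP kinase phosphatases lie highest at 66.7% and proteasome subunits lowest at 2.70%.

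Of the 16 lists, the phosphatases of the MAP kinase feedback loop had the highest share of genes with a member. Of 9 MAP kinase phosphatase genes with H3K4me3, 6 had a member (66.7%, against 19.6% for the same H3K4me3 widths). These dual-specificity phosphatases remove the activating phosphates from ERK, p38 and JNK. Dusp16, which prefers JNK and p38, had the highest, at rank 47 of the list with −log10 p of 33.3 and 28.3 in the first and second replicate. The JNKi list, of 1632 peaks against 4960 in the DMSO list, held a peak there too, at rank 7 with 56.1 and 63.3. As −log10 p can be compared only within a list, no change in binding can be read from such pairs of values. Dusp10, another JNK and p38 phosphatase, had 22.8 and 19.3, and no JNKi peak overlapped it. Dusp1, an inducible nuclear phosphatase, had 21.2 and 17.2 and was overlapped by a JNKi peak of 17.2 and 28.8. Dusp7, which acts on ERK, had 14.5 and 14.6 without a JNKi peak. Dusp8, a phosphatase of JNK and p38, had 6.72 and 8.65, at an IDR of 0.397, and a JNKi peak of 20.2 and 14.9. The higher Dusp4 member had 15.3 and 8.45 and no JNKi peak. JNKi peaks overlapped 3 of the 9 members of the list, beside 21.6% of all members. With members of IDR at most 0.05 alone, 4 of the 9 genes had a member. The background was 1.48% of all genes with H3K4me3, which was not matched for width. With H3K4me3 peaks limited to an IDR of at most 0.05 instead, 3 of the same 9 genes had a member. No share over all genes with H3K4me3 was computed at that limit. The place of this list among the 16 is therefore given for the main setting only.

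The JNK pathway itself carried fewer. Of 21 genes, 6 had a member (28.6%, against 17.2% for the same widths). None of their 7 members had an IDR of at most 0.05, which 9.72% of all members had. They were the kinases Map2k7, Map3k1, Map3k12 and Mapk10 and the scaffolds Mapk8ip1 and Spag9. Their −log10 p lay between 5.42 (Map2k7, second replicate) and 12.4 (the higher Spag9 member, second replicate). That Spag9 member, at 11 and 12.4, had a JNKi cJun peak of 10.3 and 11.7, and the other members of the list had none, which makes 1 of 7 beside 21.6% of all members.

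Of 9 AP-1 family genes with H3K4me3, Jun and Fosl2 had members (22.2%, against 17.4% for the same widths). Jun, the gene of cJun itself, had 3 in an H3K4me3 peak of 4382 bp. Their summits lay 391 bp upstream of the TSS and 160 and 2077 bp downstream, with −log10 p of 15.1 and 12, 5.85 and 14.5, and 9.24 and 4.76 in the first and second replicate. A JNKi peak of 11.7 and 12.7 overlapped the first 2 of these, and none overlapped the third. The Fosl2 member, 3103 bp wide, had −log10 p of 16.4 and 11.2 and a JNKi peak of 8.05 and 7.81. In all, 3 of the 4 members of the list had a JNKi peak, beside 21.6% of all members. The JNKi peak at Fosl2 ran from position 32133809 to 32134715. It did not reach the summit of the member, at 32135836, or the AP-1 site beside that summit. The summit lay 35 bp downstream of the TSS in an exon, and the site is in capitals.

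Fosl2, chr5:32135843-32135872 (+): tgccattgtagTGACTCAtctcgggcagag

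No AP-1 site or CRE of the exact sequences searched was found anywhere in the 3 Jun members. Variants of these sites were not searched for. Among 20 CREB and ATF genes with H3K4me3, 3 had a member (15%, against 17.0% for the same widths). The highest Crem member had 13.3 and 25.7, and Crem encodes a CRE-binding modulator. Atf3, a stress-induced repressor, had 11.2 and 5.55, and Atf4, the effector of the integrated stress response, had 5.99 and 4.72 at 1 member and 16.8 and 4.64 at another. A JNKi peak (3.39 and 9.66) overlapped the Atf3 member and none of the other CREB and ATF members, 1 of 6 beside 21.6% of all members.

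Immediate early genes, which respond to signals without new protein synthesis, also ranked high. Of 21 with H3K4me3, 11 had a member (52.4%, against 19.5% for the same widths), and Zfp36l1 had a member without H3K4me3 over its TSS. Egr1, a zinc finger factor, had the highest, with −log10 p of 23.9 and 21 and no JNKi peak. That member was 216 bp wide, and 10.7% of all members up to 300 bp wide had a JNKi peak. Klf10 had 3 members. Klf2, Klf4, Klf6, Maff, Myc, Nr4a2, Nr4a3, Zfp36 and Zfp36l2 were the others. Members of IDR at most 0.05 were at 3 of the 21 genes (14.3%, against 1.48% of all genes with H3K4me3, not matched for width). JNKi peaks overlapped 4 of the 14 members, at Klf4, Klf10 and Maff, beside 21.6% of all members.

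Many β cell genes had broad H3K4me3 and a cJun member. Of 19 β cell transcription factor genes, 9 had a member (47.4%, against 25.1% for the same widths). The highest were at Foxa2, which opens chromatin in endoderm (19.2 and 17.2), Rfx3, a ciliary and islet factor (15.2 and 17.3), and Isl1, an islet LIM-homeodomain factor (12.4 and 16.1). None of these 3 had a JNKi peak. They were the only genes of the list with a member of IDR at most 0.05. That was 15.8% of the 19, against 1.48% of all genes with H3K4me3, not matched for width. Pdx1, the master factor of the pancreas, had 11.9 and 3.34 and a JNKi peak of 6.43 and 8.03. Neurod1 and Nkx6-1 had 2 members each, 1 of which at each gene had a JNKi peak. The JNKi peak at Neurod1, from position 79456294 to 79456855, did not reach the summit of its member, at 79455798. Mlxipl, Pax6 and St18 had members and no JNKi peak. In all, 3 of the 17 members of the list had one, beside 21.6% of all members.

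Of 20 genes of β cell secretion, 9 had a member (45.0%, against 23.1% for the same widths). None of these had an IDR of at most 0.05, a limit met by 9.72% of all members. Chga, a granule protein, had −log10 p of 11.3 and 24.9 and Pcsk2, a prohormone convertase, had 8.07 and 10.1 with an AP-1 site within 100 bp of the summit. Ins2, an insulin gene, had 4.8 and 9.64 at a low rank of 3521, and a JNKi peak of 6.41 and 5.50. Iapp, which encodes amylin, had 7.99 and 5.42. Ero1lb, a β cell thiol oxidase, had 7.48 and 11.9 and a JNKi peak, which makes 2 of the 9 secretion members with one, beside 21.6% of all members. Gipr, Scg2, Scg5 and Slc2a2 were the others. Cck had H3K4me3 over a TSS and no member.

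Histone genes were the other group with many members. Of 46 replication-dependent histone genes with H3K4me3, 28 had a member (60.9%, against 11.1% for the same widths), and 5 had one without H3K4me3 over their own TSS. These genes lie close together and share peaks, so the list rests on 23 distinct members. Genes of the same core histone also have closely similar coding sequences. The highest, at Hist1h4k, had −log10 p of 28.4 and 19.3 and no JNKi peak. JNKi peaks overlapped 4 of the 23, against 21.6% of all members. A member of IDR at most 0.05 was at 2 of the genes (4.35%), against 1.48% of all genes with H3K4me3, not matched for width.

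In 9 of the 16 lists, CREB and ATF genes included, the share was below that for the same H3K4me3 widths. Members were found at 1 of 37 proteasome genes (2.70%, against 12.9%), 4 of 73 respiratory chain genes (5.48%, against 13.8%), 2 of 33 splicing factor genes (6.06%, against 18.9%) and 5 of 76 cytosolic ribosomal protein genes (6.58%, against 16.3%). The highest of these were at Psma1 (7.11 and 3.50), Cox4i1 (10.8 and 11.8), Srsf7 (11.5 and 6.63) and Rps14 (15.4 and 12.4). Members were found at 3 of 31 cell cycle genes (9.68%, against 17.7%), led by Cdkn1b (13.1 and 21.3), and at 2 of 20 aminoacyl-tRNA synthetase genes (10%, against 15.2%), led by Qars (12.5 and 7.85). The unfolded protein response had 3 of 22 (13.6%, against 20.8%), led by Ern1, the sensor IRE1α (11.2 and 24.4). The enzymes of H3K4 methylation and demethylation had 2 of 16 (12.5%, against 16.8%), led by Setd1b (11.2 and 11.2).

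The 10 highest members were found again in JNKi cells, all 10 with an overlapping cJun peak. Retention was higher toward the top of the list, though uneven over the lower deciles. It was 9.09% of members and 11.3% of all other cJun peaks in the lowest decile. In the highest decile it was 55.6% of members and 74.3% of the others. St6galnac6, a sialyltransferase gene, ranked 6 of the whole list with −log10 p of 86.8 and 62.9 in DMSO and 52.2 and 50.3 in JNKi. Lamtor1, a lysosomal Ragulator subunit, had 57.7 and 62.6 in DMSO and 29.6 and 63.3 in JNKi. Ppp2r3d, a regulatory subunit of phosphatase PP2A, had 57.4 and 55.7, and 86.1 and 57.5. The noncoding Gm39469 had 47.7 and 47.9, and 35.9 and 36.7. Srebf1, the regulator of lipid synthesis, had 48.3 and 44.8, and 26.3 and 37.3. Zbtb21, Klhl9, Zbtb44, Cic and Nt5dc3 followed, with −log10 p in DMSO from 32.6 to 46.4. Cic is a repressor controlled by receptor tyrosine kinase signalling. Of the 10, only Nt5dc3 had an AP-1 site and only Ppp2r3d a CRE within 100 bp of the summit, beside 4.31% and 1.16% of all members.

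The 5 highest members without a JNKi peak were Mypop, Cdk19, Ppp2r5a, Abcb8 and Usp5. Cdk19 encodes a Mediator kinase and had −log10 p of 27.9 and 38.3, Ppp2r5a, a PP2A subunit, had 32.6 and 25.8, Abcb8, a mitochondrial transporter, had 26.2 and 23.9, and Usp5, a deubiquitinase, had 32.0 and 23.5. All 4 were narrow, at 203 to 243 bp, and Mypop was 721 bp wide with 34.3 and 28.1. Among the 100 highest members 20 were up to 300 bp wide, and 4 of those 20 had a JNKi peak, against 67 of the 100. None of the 5 had an AP-1 site anywhere in the peak, and Mypop had a CRE, beside 15.6% and 4.64% of all members.

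A cJun peak of the JNKi list overlapped 391 members (21.6%, 19.8 to 23.6), against 23.6% of all DMSO cJun peaks and 778 of 3150 other DMSO cJun peaks. The share depended on the lists, at 57.4% of members of IDR at most 0.05, 38.1% between lists of equal length and 5.19% with JNKi peaks of IDR at most 0.05, where the difference from other peaks turned to 1.00 point (-0.197 to 2.30). The difference of -3.10 points (-5.49 to -0.647) from the other peaks was no longer apart from 0 with midpoints within 1 kb (-2.56 points, -5.03 to 0.00209) or H3K4me3 peaks of IDR at most 0.05 (-1.60 points, -4.08 to 0.967). It was larger, at -17.7 points (-26.5 to -8.75), among cJun peaks of IDR at most 0.05. It also moved with peak width. Members were narrower (median 559 bp, against 735 bp at H3K4me3 far from promoters and 662 bp outside H3K4me3). Retention rose with width, from 10.7% of members up to 300 bp wide and 12.8% of those up to 600 bp to 48.6% of those over 1000 bp, and among the other peaks from 11.3% and 12.7% to 52.8%. In a logistic fit over all 4960 peaks the odds ratio of members against others was 0.840 (0.732 to 0.965) without a covariate, 0.794 (0.686 to 0.920) with rank, 1.08 (0.927 to 1.25) with log2 width and 1.04 (0.893 to 1.22) with both. With width held, a difference between promoter members and other cJun peaks was not detected, within these intervals. In the highest decile by rank 55.6% of 196 members and 74.3% of 300 other peaks had a JNKi peak. No fit with width was made within that decile. Among its peaks over 300 bp wide the difference was -12.1 points (-21.1 to -3.23), and the intervals held 0 among those over 1000 bp (-8.64 points, -21.6 to 2.04) and up to 300 bp (-23.6 points, -49.0 to 3.07). This split was chosen after the data were seen.

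**Figure D5:**
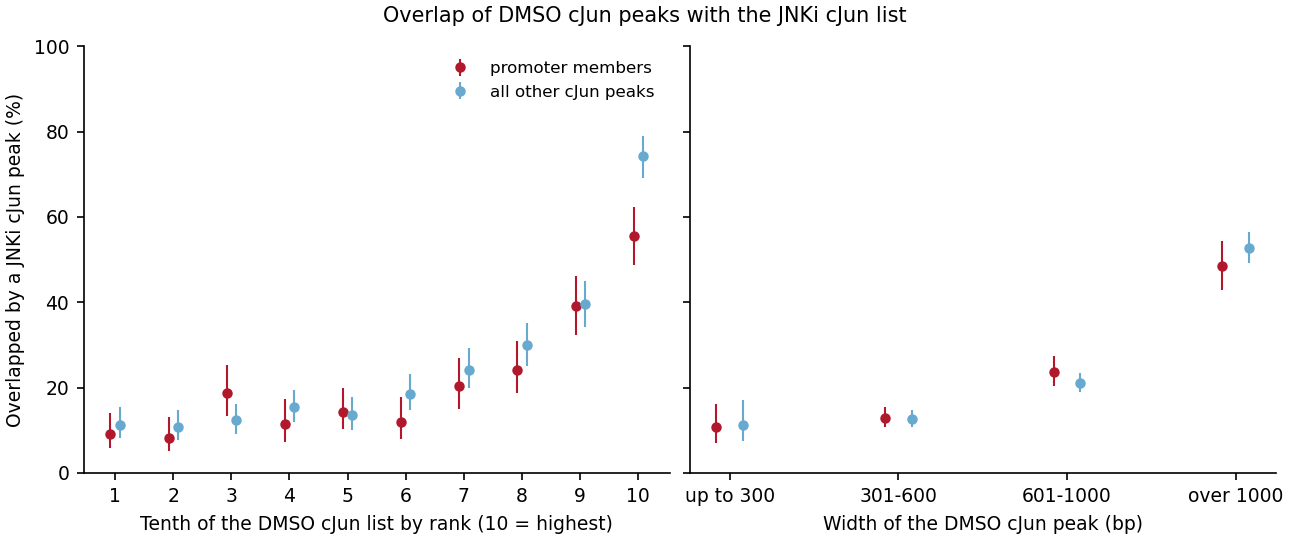
Share of DMSO cJun peaks overlapped by a JNKi cJun peak (y axes, %, with 95% Wilson intervals) by decile of rank in the DMSO list (left) and by peak width in bp (right), for the promoter members and all other cJun peaks. Both groups rise with width (right). By rank (left) they are uneven over the lower deciles, as for members with 18.6% in decile 3 and 11.4% in decile 4, and rise over the higher ones. They part in the highest decile (55.6% of members, 74.3% of the others).

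Within the members, retention was set against motif content. Of members with an AP-1 site within 100 bp, 24 of 78 (30.8%) had a JNKi peak, and 21.2% of the rest did, a difference of 9.58 points (0.229 to 20.7). With rank and width in the fit, the odds ratio was 1.47 (0.842 to 2.57). With sites counted within 250 bp, 73 of 256 members with an AP-1 site (28.5%) and 32 of 105 with a CRE (30.5%) had a JNKi peak, 8.05 points (2.47 to 14.2) and 9.42 points (1.19 to 19) above members without. Members with an SP/KLF motif within 100 bp had JNKi peaks in 25.5% and the others in 20.6% (difference 4.88 points, 0.208 to 9.93). For a CRE within 100 bp the difference was 7.05 points with an interval that held 0 (-7.84 to 28.5). The differences for the SP/KLF motif and for sites within 250 bp were not adjusted for rank and width. CpG-island-like members had JNKi peaks in 22.4% and the others in 20.9% (difference 1.49 points, -2.30 to 5.28). Retention also differed little by distance, at 22.0% within 500 bp of a TSS and 20.6% further away (difference 1.41 points, -2.85 to 5.40).

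Among AP-1 members, JNKi peaks overlapped Nt5dc3 (32.6 and 32.6 in DMSO, 41.2 and 42.1 in JNKi), Bcar1, an adhesion adaptor gene (23.1 and 24.5, then 17.2 and 16.6), and Cirbp, a cold-inducible RNA-binding protein gene (18.3 and 15.4, then 5.66 and 9.71), and the chromosome 19 transcript (16.4 and 17.4, then 23 and 16.1), but not Gm30239 (17.9 and 15.9 in DMSO). Among CRE members they overlapped Ppp2r3d, Crlf2, a cytokine receptor gene (29.7 and 14.2, then 7.81 and 5.96), and Epb41, a membrane skeleton gene (12.5 and 9.81, then 6.91 and 3.42). They did not overlap Gucy2c, a guanylate cyclase gene (9.03 and 9.21), or Ppfia1, a liprin gene (12.1 and 8.59).

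The mark that defined these promoters was still called under the inhibitor. A JNKi H3K4me3 peak overlapped 1785 of 1810 members (98.6%, 98.0 to 99.1), against 52.7% of all DMSO cJun peaks, 86.2% of those at H3K4me3 far from promoters and 4.59% of those outside H3K4me3. Counted over H3K4me3 peaks at promoters instead, a JNKi H3K4me3 peak overlapped 99.8% (99.4 to 99.9) of those with a member and 98.6% (98.4 to 98.8) of those without a cJun peak. Seen from the JNKi lists, 605 of 1632 JNKi cJun peaks met the same rule against JNKi H3K4me3. A DMSO cJun peak of any class overlapped 394 of these (65.1%, 61.2 to 68.8), against 76.0% of the other JNKi cJun peaks. Of the 605, 383 (63.3%, 59.4 to 67.1) overlapped a member, while 386 of the members (21.3%) overlapped 1 of them. The DMSO list is the longer, so the shares differ by list length as well as by treatment, and a peak missing from the JNKi list is not shown to be lost. An AP-1 site lay within 100 bp of 27 of the 605 JNKi promoter summits (4.46%, 3.09 to 6.42) and a CRE of 14 (2.31%, 1.38 to 3.85), against 12.1% and 1.78% of all JNKi cJun summits.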

How the data were processed

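CUT&RUN libraries (12) were trimmed, aligned to GRCm38 with Bowtie2 2.4.2, filtered with SAMtools 1.16 and called against IgG with MACS2 2.2.7.1 by the authors, per the study's methods. The authors then merged the replicates of each treatment with the IDR tool. The deposited lists hold the −log10 p-value of each peak in each replicate and in the merged list, where it equals the lower of both, and a score, which is a form of the IDR. IgG libraries were not analysed here.

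Ranks follow the merged −log10 p. Peaks were joined to GENCODE vM21 basic start sites, and windows were read from the RefSeq GRCm38.p6 sequence. Python 3.11.15, pandas 2.3.3, numpy 2.4.6, pysam 0.24.0 and statsmodels 0.14.6 were used, and the intervals, motif search and logistic fit were tested on simulated data. Members and lists were chosen with earlier results of these data known. Named were the 10 highest members, the 5 highest retained, not retained, with an AP-1 site and with a CRE, members of the JNK, AP-1, CREB, phosphatase and β cell lists, the highest member of each other list and those at the limits of the rule. Genes of the immediate early list other than Egr1, genes with many members, and the marker genes outside these were named after their values were seen.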

Additional observations from a re-analysis of the deposited data

How the results depend on the processing

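No paired analysis was possible because the replicate columns of the lists carry no numbers and only 1 merged list stands for a treatment, and leaving out a replicate could not be done for the same reason. The alternatives on differences from H3K4me3 far from promoters, on start sites and on the IDR limits of these were chosen after the data were seen. So were those on the gene-list counts and on H3K4me3 under JNKi at members. Over the main results and their alternatives, 127 values kept direction and side of 0 or, for counts and shares, stayed close to the main value. Another 33 counts or shares moved, 11 differences no longer excluded 0, 5 turned and 1 came to exclude 0. Of the gene-list counts, 36 moved by over 1.5 times, most with the IDR limits, and 92 changed by less or not at all.

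With cJun peaks limited to an IDR of at most 0.05, there were 176 members at 187 protein-coding genes, 57.4% retained, 60.8% CpG-island-like and 79.0% with the summit within 500 bp of a TSS. The CRE difference was 0.0668 points outside H3K4me3, -0.0831 far from promoters and 2.16 at start sites, the AP-1 difference far from promoters was -2.20 and the CpG difference at start sites -4.07. At an IDR of at most 0.01 there were 87 members at 101 genes, with 70.1% retained, 3.45% with an AP-1 site, 67.8% CpG-island-like, 81.6% within 500 bp and 100% at JNKi H3K4me3. The CRE differences were then -0.0701, -1.48 and 1.54 points, the AP-1 difference -4.45 and the CpG difference at start sites -0.948. The number of peaks fell with each limit.

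With midpoints within 1 kb the retention difference was -2.56 points, with an interval that held 0, and 54.4% were CpG-island-like, 83.4% within 500 bp and 99.3% at JNKi H3K4me3. With protein-coding starts alone these shares were 52.2%, 74.0% and 99.4%, and the CpG difference at start sites was -2.37 points. With H3K4me3 peaks of IDR at most 0.05 they were 51.5%, 74.1% and 100%, the retention difference was -1.60 (interval holding 0) and the AP-1 difference far from promoters -0.971.

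Retention was 15.7% at 50% reciprocal overlap, 16.9% for summits within 200 bp, 38.1% between lists of equal length and 5.19% with JNKi peaks of IDR at most 0.05, where the difference turned to 1.00 point (-0.197 to 2.30). The retention difference was -8.08 points (-12.9 to -3.14) between lists of equal length, and -17.7 (-26.5 to -8.75) and -19.9 (-31.0 to -9.00) with cJun peaks of IDR at most 0.05 and 0.01. With rank and width in a logistic fit it turned to an odds ratio of 1.04. AP-1 sites were in 1.88%, 14.1% and 15.6% of members within 50 bp, 250 bp and the whole peak, and CREs in 0.663%, 5.80% and 4.64%. The CRE difference was 0.403 points outside H3K4me3 within 50 bp and 3.18 far from promoters within 250 bp. With windows of 250 bp to either side 56.7% were CpG-island-like, and 45.2% at stricter limits. Except where the numbers of peaks changed, the cause was not tested.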

Other observations

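Of the 100 highest members, several fell close together. Between positions 119000000 and 120000000 of chromosome 13, 4 lay at 3110070M22Rik, Hmgcs1 (an enzyme of cholesterol synthesis), Nim1k and Zfp131, where 8 members and 13 H3K4me3 peaks were found in all. Between positions 4000000 and 5000000 of chromosome 19, 4 lay at Cdk2ap2, Pcx (pyruvate carboxylase), Lrfn4 and the unclassified transcript, among 8 members and 51 H3K4me3 peaks. Between positions 124000000 and 125000000 of chromosome 9, 3 lay at Gm39469, 2010315B03Rik and Ppp2r3d, and these were the only members among 4 H3K4me3 peaks. These windows were chosen after the data were seen, and no test was made.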
